A study of Mus musculus with 9 samples.

Results

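Wnt proteins are secreted, lipid-modified signals that bind Frizzled receptors at the cell surface. With the co-receptors Lrp5 and Lrp6 they stabilise beta-catenin, which then acts with TCF/LEF factors in the nucleus, and with other partners they steer cell polarity and calcium signalling. Secreted Frizzled-related proteins (Sfrp) resemble the Wnt-binding part of Frizzled and bind Wnt ligands outside the cell, while the typical Dickkopf (Dkk) proteins block Lrp5 and Lrp6. In the heart the pathway takes part in the early specification of cardiac cells and in the response of fibroblasts to injury.

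The genes described here are the Wnt ligands, the Frizzled receptors and the secreted antagonists of the Sfrp and Dkk families in cultured neonatal mouse cardiac fibroblasts. They were chosen by name alone: every row whose symbol is Wnt or Fzd with a number, Sfrp1 to Sfrp5, or Dkk1 to Dkk4. The rule found 36 of 34779 named genes, namely 18 ligands, 10 Frizzleds, 4 Sfrp genes and 4 Dkk genes. Sfrp3 is listed under its other symbol, Frzb, which the rule does not take, and is given with the wider pathway.

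RNA was sequenced from wild-type (WT) cells at day 14 after viral infection, in 9 libraries that form 3 groups of 3. The MGT+TMP269 group received the MGT virus, which delivers the cardiac factors Mef2c, Gata4 and Tbx5, together with TMP269, a class IIa histone deacetylase inhibitor labelled as acting on HDAC4. The MGT group received the virus without the compound, and the DsRed group, the negative control, received a virus for a red fluorescent protein. All groups were infected 24 h after seeding in the presence of polybrene and were kept in serum-containing induction medium, per the labels' protocols. The study asked how TMP269 affects reprogramming towards cardiac cells by MGT. Replicates carry the words bio rep and a number in the labels, with no culture or animal named, so p-values reflect only how far these libraries spread, and that spread may be technical.

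Values are TPM, length-corrected shares of the transcripts in a library, which allows levels to be set side by side between genes. All 11 markers of the labelled cell type, fibroblasts, averaged at least 1 TPM in every group. The family members Sfrp1 and Dkk3 are among them. Their summed level was 2402 to 2548 TPM in MGT+TMP269 libraries, 7774 to 8324 TPM in MGT libraries and 6169 to 11551 TPM in DsRed libraries. This level does not tell cell types apart. All 7 epicardial and mesothelial markers also reached it in every group, as did 14 of 15 macrophage markers in MGT and in DsRed cells. Replicate 2 of DsRed stood apart, with an upper quartile of 5.38 TPM against 8.69 to 9.57 TPM in the other libraries. Over all tested genes its median ratio to the mean of the other DsRed libraries was 0.678. It lay below both of them for 15 of the 19 tested genes of the family, the 8 tested Frizzleds included, so results against DsRed are also given without it. In bulk RNA of this kind, fewer cells of a type and less RNA per cell cannot be told apart.

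Of the 36 genes, 20 averaged at least 1 TPM in at least 1 group. The 19 that averaged at least 1 TPM over all 9 libraries were tested with limma on log2(TPM + 1), and adjusted p-values are Benjamini-Hochberg values over all 13228 genes tested, with a gene called at an adjusted p under 0.05. Dkk2 reached the level in DsRed cells but was too low overall to be tested. A log2 fold change is a difference on the log2(TPM + 1) scale and understates changes of low genes, so a fold of mean TPM is added where both means are at least 1. Wnt4 and Sfrp4 entered the test only through their level in DsRed cells, and Wnt7a and Sfrp2 also have a group mean below 1 TPM. Such genes had to differ between groups, so the counts below describe the genes tested and are not support for a change of the family.

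With TMP269 added to MGT, 5 of the 19 tested genes were called (26.3%), against 9.29% of all tested genes. Wnt7a rose, where the share of all tested genes called higher was 3.32%, and Wnt16, Sfrp1, Sfrp2 and Dkk3 fell, where the share called lower was 5.97%. In MGT against DsRed, 9 were called (47.4%, against 12.3% of all tested genes). Wnt5b, Wnt7a, Wnt16, Fzd5 and Fzd6 rose (all tested genes, 8.14% higher), and Wnt4, Wnt11, Sfrp1 and Sfrp2 fell (all tested genes, 4.18% lower). With median-ratio scaling or quantile normalization that split of 5 and 4 was 5 and 6, since Fzd4 and Sfrp4 then fell too. The comparison of MGT+TMP269 with DsRed called 11 (57.9%, against 22.8% of all tested genes). Wnt5b, Wnt7a, Fzd5 and Fzd6 rose (all tested genes, 14.7% higher), and Wnt4, Wnt11, Sfrp1, Sfrp2, Sfrp4, Dkk3 and Fzd8 fell (all tested genes, 8.06% lower). The median log2 fold change of the 19 was 0.01, -0.12 and -0.26 in the 3 comparisons in this order, and that of all tested genes was 0.11, 0.11 and 0.22. The 3 libraries of each group did not overlap for 4 higher and 6 lower genes of the 19 in MGT+TMP269 against MGT, where 49.3% of all tested genes did not overlap, 32.7% higher and 16.6% lower. The same held for 6 higher and 5 lower genes in MGT against DsRed (28.7% of all tested genes, 19.1% higher and 9.63% lower) and for 6 higher and 8 lower genes in MGT+TMP269 against DsRed (41.9%, 29.8% higher and 12.1% lower). Without DsRed replicate 2, the counts of called genes of the family were 7, 15 and 16 in the 3 comparisons. Those of all genes were then 4060, 3468 and 4851, against 1229, 1630 and 3016 in the main fit, so calls rose in general. Every pair of comparisons shares a group, so they are not independent of each other.

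**Figure D1:**
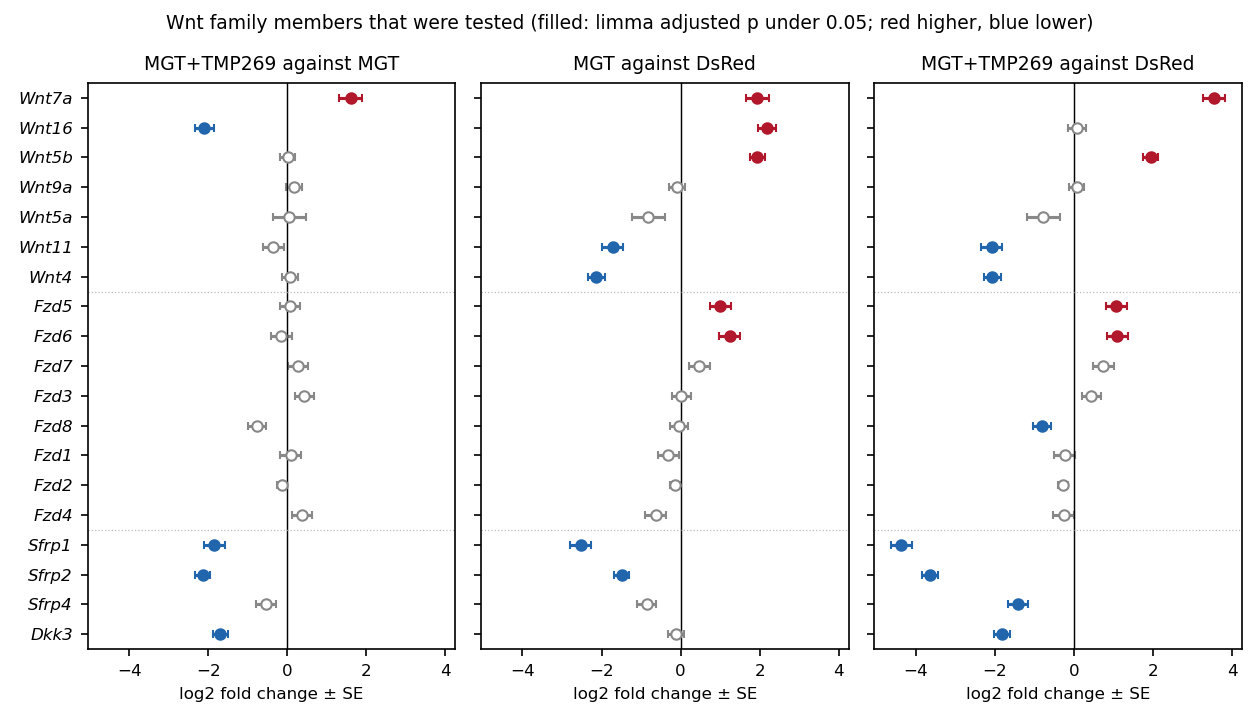
Log2 fold change (x axis, with its SE as a whisker) of each of the 19 tested genes in the 3 comparisons, where a filled point was called by limma at an adjusted p under 0.05. Wnt7a lies right of 0 in all 3 panels and Sfrp1 and Sfrp2 left of it, Wnt16 changes side between the first 2 panels, and no filled point changed sign under the 17 alternative settings, while some open points near 0 did.

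The stretch just before the transcript start is shown for Wnt7a, Wnt16, Wnt4 and Sfrp2, which had the largest called changes among the genes with 1 start in the sequence table. Sfrp1, whose largest called change was greater than theirs, is named only. The sequences are from RefSeq, build GRCm38.p6, 250 bases each, 5′ to 3′ on the strand of the gene, and the build named by the submitters is another one (mm9). Capitals mark CCAAT and GGGCGG on either strand, the letters known as the CCAAT box and the GC box; matches that overlap each other were counted separately, and no match of one motif overlapped a match of the other. The positions are chr6:91411354-91411603 on the minus strand for Wnt7a, chr6:22287977-22288226 on the plus strand for Wnt16, chr4:137277385-137277634 on the plus strand for Wnt4 and chr3:83766071-83766320 on the plus strand for Sfrp2.
Wnt7a: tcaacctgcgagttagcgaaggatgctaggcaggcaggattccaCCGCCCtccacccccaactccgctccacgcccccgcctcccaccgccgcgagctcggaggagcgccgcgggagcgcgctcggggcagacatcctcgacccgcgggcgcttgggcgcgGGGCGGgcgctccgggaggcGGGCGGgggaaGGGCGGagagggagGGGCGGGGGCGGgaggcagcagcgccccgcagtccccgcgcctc
Wnt16: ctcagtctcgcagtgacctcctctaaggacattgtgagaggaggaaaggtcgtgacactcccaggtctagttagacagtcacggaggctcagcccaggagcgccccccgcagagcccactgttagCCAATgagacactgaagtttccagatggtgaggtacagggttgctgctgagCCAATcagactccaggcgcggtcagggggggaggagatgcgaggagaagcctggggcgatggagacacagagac
Wnt4: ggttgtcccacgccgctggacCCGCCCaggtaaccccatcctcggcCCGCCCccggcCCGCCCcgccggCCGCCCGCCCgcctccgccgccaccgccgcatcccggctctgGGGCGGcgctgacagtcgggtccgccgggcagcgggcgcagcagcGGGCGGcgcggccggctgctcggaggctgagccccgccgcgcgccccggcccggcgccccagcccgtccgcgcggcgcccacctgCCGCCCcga
Sfrp2: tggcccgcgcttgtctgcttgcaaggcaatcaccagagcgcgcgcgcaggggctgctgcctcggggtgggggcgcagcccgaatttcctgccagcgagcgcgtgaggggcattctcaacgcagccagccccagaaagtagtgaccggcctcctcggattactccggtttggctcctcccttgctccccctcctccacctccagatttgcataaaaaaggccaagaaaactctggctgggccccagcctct
The windows of Wnt7a and Wnt4 held 6 and 8 GC boxes, 34 and 44 CpG sites and 77.6% and 85.2% G or C. Wnt16 had 2 CCAAT boxes, 9 CpG sites and 59.2% G or C, and Sfrp2 had neither motif, 16 CpG sites and 63.6% G or C. The median of all 32851 windows was 6 CpG sites and 52.4% G or C, so each of the 4 windows was above it in both.

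Windows were found for 25 of the 36 genes (28 windows). A GC box was present in 20 of the 28 windows, against 32.7% of all windows, and a CCAAT box in 10 of the 28, against 33.8%. The TCF/LEF letters ATCAAAG, searched on both strands, were in the windows of Wnt5b and Wnt11 and in 3.21% of all windows. The GATA letters AGATAA were in those of Fzd1, Sfrp5 and Wnt8b (9.99% of all windows), and the T-box letters AGGTGT in those of Wnt2b and Wnt5b (11.8%). A MEF2 motif was in 0 of the 28, against 2.92% of all windows. None of these 4 further motifs was in the 4 windows shown. A match describes the letters in a window and nothing about binding.

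Among the ligands, the summed level of all 18 had overlapping ranges in the 3 groups, while a different ligand led it in each. The sum was 47.8 ± 8.78 TPM in MGT+TMP269 cells, 56.4 ± 2.51 TPM in MGT cells and 52.4 ± 13.2 TPM in DsRed cells (SD, n = 3 each). Wnt7a led it in MGT+TMP269 cells with 28.1 ± 2.71% of the sum. Wnt16 led in MGT cells with 42.0 ± 5.32%, and Wnt5a and Wnt11 led in DsRed cells with 27.8 ± 11.4% and 26.7 ± 3.87%. Within the DsRed group, Wnt5a led in replicate 1 and Wnt11 in replicates 2 and 3.

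**Figure D2:**
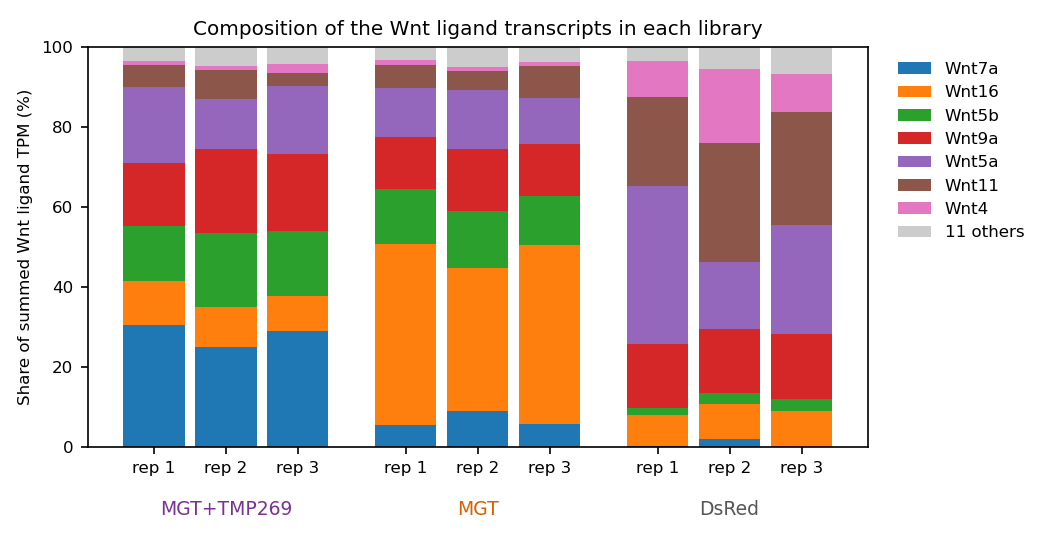
Share of the summed TPM of the 18 Wnt ligand genes (y axis, percent) taken by each of 7 ligands and by the 11 others in each of the 9 libraries (x axis). Wnt7a takes 25.1% to 30.3% in MGT+TMP269 libraries, Wnt16 takes 35.8% to 45.3% in MGT libraries, and Wnt11, Wnt4 and Wnt5a together fill most of the DsRed bars.

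Wnt7a, a ligand best known from limb patterning, synapses and muscle stem cells, was highest with TMP269. It had 17.3, 9.91 and 13.5 TPM in MGT+TMP269 libraries, against 2.98, 4.89 and 3.42 TPM in MGT libraries and 0.0770, 0.702 and 0 TPM in DsRed libraries. The 3 groups formed separate ranges, and each library with TMP269 was above each without it. The mean was 3.61-fold higher in MGT+TMP269 than in MGT cells, a log2 fold change of 1.60 ± 0.29 (SE, limma adjusted p = 0.00751). That call was lost with a pseudocount of 0.1 (adjusted p = 0.152) and held under 16 of 17 alternatives. Against DsRed the log2 fold change was 3.54 ± 0.29 in MGT+TMP269 cells (limma adjusted p = 2.31e-05) and 1.94 ± 0.29 in MGT cells (limma adjusted p = 0.00157).

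Wnt16, a ligand studied in bone and joints, was highest in MGT cells. It had 6.37, 3.95 and 4.17 TPM in MGT+TMP269 libraries, 24.7, 19.8 and 26.6 TPM in MGT libraries, and 4.75, 3.28 and 5.41 TPM in DsRed libraries. The ranges of MGT+TMP269 and DsRed overlapped, and both lay below the MGT range. Its mean was 4.90-fold lower in MGT+TMP269 than in MGT cells, a log2 fold change of -2.10 ± 0.23 (limma adjusted p = 0.000552), and 5.29-fold higher in MGT than in DsRed cells, a log2 fold change of 2.18 ± 0.23 (limma adjusted p = 0.000182). Both calls held under all 17 alternatives. Between MGT+TMP269 and DsRed the log2 fold change of 0.09 ± 0.23 did not pass (limma adjusted p = 0.807), and its sign depended on the scaling.

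Wnt5b, a ligand that acts mainly outside the beta-catenin route, was higher with the MGT virus whether or not the compound was present. It had 7.84, 7.27 and 7.65 TPM in MGT+TMP269 libraries, 7.45, 7.95 and 7.16 TPM in MGT libraries, and 0.986, 0.999 and 1.78 TPM in DsRed libraries. Both groups with the MGT virus lay above every DsRed library and overlapped each other. The means were 6.04-fold higher in MGT+TMP269 cells (log2 fold change 1.95 ± 0.19, limma adjusted p = 7.44e-05) and 5.99-fold higher in MGT cells (1.94 ± 0.19, limma adjusted p = 0.000112) than in DsRed cells. Between MGT+TMP269 and MGT the log2 fold change was 0.01 ± 0.19 and did not pass (limma adjusted p = 0.982).

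Wnt4 and Wnt11 were highest in DsRed cells. Wnt11, a ligand with roles in heart development through calcium and polarity signalling, had 3.14, 2.88 and 1.56 TPM in MGT+TMP269 libraries, 3.19, 2.63 and 4.72 TPM in MGT libraries, and 13.4, 11.0 and 17.0 TPM in DsRed libraries. Wnt4, needed for kidney tubule formation, had 0.530, 0.452 and 1.10 TPM in MGT+TMP269 libraries, 0.564, 0.575 and 0.646 TPM in MGT libraries, and 5.43, 6.86 and 5.70 TPM in DsRed libraries. For both genes every DsRed library was above every other one, and the MGT+TMP269 and MGT ranges overlapped. Relative to DsRed, Wnt11 was 5.45-fold lower in MGT+TMP269 cells (log2 fold change -2.08 ± 0.27, limma adjusted p = 0.000464) and 3.93-fold lower in MGT cells (-1.72 ± 0.27, limma adjusted p = 0.00208). Wnt4 changed by -2.06 ± 0.21 in MGT+TMP269 cells (limma adjusted p = 0.000111) and by -2.13 ± 0.21 in MGT cells (limma adjusted p = 0.000127). These 4 calls against DsRed held under all 17 alternatives.

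Wnt5a, the main ligand of polarity signalling and the close relative of Wnt5b, was not called in any comparison. It had 10.9, 4.89 and 7.95 TPM in MGT+TMP269 libraries, 6.71, 8.23 and 6.90 TPM in MGT libraries, and 23.6, 6.22 and 16.4 TPM in DsRed libraries. DsRed replicate 2 lay among the MGT and MGT+TMP269 libraries, and the other DsRed libraries lay above all of them. Its log2 fold change was -0.77 ± 0.42 in MGT+TMP269 cells (limma adjusted p = 0.216) and -0.82 ± 0.42 in MGT cells (limma adjusted p = 0.272) relative to DsRed. Without DsRed replicate 2 both were called, at -1.27 (limma adjusted p = 0.00910) and -1.33 (limma adjusted p = 0.0102). Wnt9a had 8.95, 8.34 and 9.00 TPM in MGT+TMP269 libraries, 7.15, 8.44 and 7.66 TPM in MGT libraries, and 9.54, 6.01 and 9.86 TPM in DsRed libraries. The 3 ranges of Wnt9a overlapped, and its log2 fold changes of 0.16 ± 0.20, -0.09 ± 0.20 and 0.07 ± 0.20 in the 3 comparisons did not pass (lowest limma adjusted p = 0.708). That is no proof of equal levels.

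**Figure D3:**
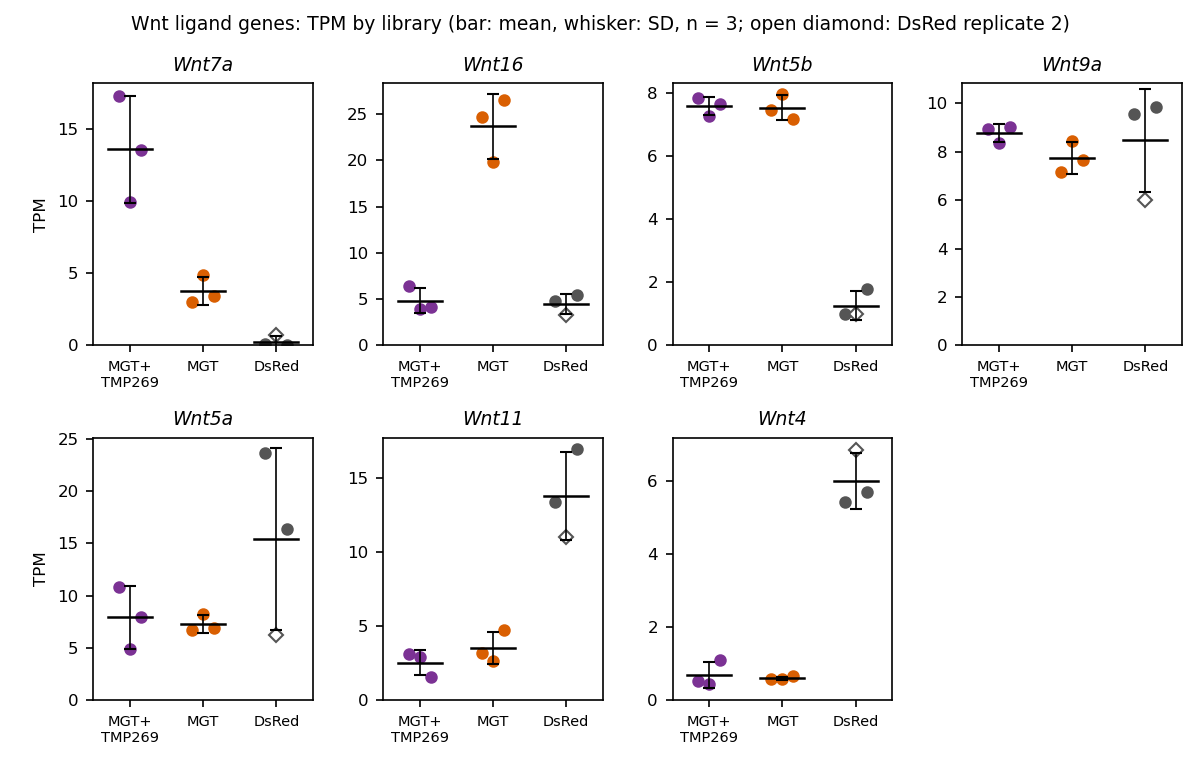
TPM (y axis) of the 7 tested Wnt ligand genes in each library (points), with the mean as a bar and the SD as a whisker, n = 3 for each of MGT+TMP269, MGT and DsRed. Wnt7a is highest with TMP269, Wnt16 in MGT cells, Wnt5b in both groups with the MGT virus, and Wnt11 and Wnt4 in DsRed cells, where an open diamond marks replicate 2.

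The other 11 ligands stayed below a mean of 1 TPM in every group. The highest single values were 1.10 TPM of Wnt2b and 1.04 TPM of Wnt2, both in DsRed replicate 3. Wnt10b reached 0.832 TPM in the same library and Wnt10a 0.789 TPM in MGT replicate 2. Wnt3a, the ligand most used to switch on beta-catenin signalling in culture, was listed at 0 in all 9 libraries.

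The Frizzleds were read in the same way. Their summed level was 159 ± 3.94 TPM in MGT+TMP269 cells, 165 ± 0.338 TPM in MGT cells and 153 ± 43.9 TPM in DsRed cells, where replicate 2 held 103 TPM and the others 175 and 182 TPM. Fzd2, which can signal through both Wnt routes, led the sum in every library, with 28.5 ± 1.47% in MGT+TMP269 cells, 30.3 ± 0.790% in MGT cells and 37.6 ± 7.38% in DsRed cells. None of the 8 tested Frizzleds was called between MGT+TMP269 and MGT, where 9.29% of all tested genes were called, so few calls among 8 genes would be usual. Against DsRed, 2 of the 8 were called in MGT cells (12.3% of all tested genes) and 3 in MGT+TMP269 cells (22.8%). Between MGT+TMP269 and MGT, 1 of the 8 had an unadjusted limma p under 0.05. The libraries did not overlap for 3 of them that were higher and 2 that were lower with TMP269, against 32.7% and 16.6% of all tested genes.

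Fzd5 and Fzd6 rose in both groups with the MGT virus. Fzd5, a receptor able to signal through beta-catenin, had 10.7, 10.5 and 11.3 TPM in MGT+TMP269 libraries, 10.1, 10.3 and 10.6 TPM in MGT libraries, and 6.17, 2.54 and 6.04 TPM in DsRed libraries. Fzd6, a receptor linked to hair patterning and planar polarity, had 22.2, 23.8 and 26.1 TPM in MGT+TMP269 libraries, 27.7, 26.5 and 25.9 TPM in MGT libraries, and 13.9, 6.14 and 13.9 TPM in DsRed libraries. All libraries with the MGT virus were above all DsRed libraries for both genes, and DsRed replicate 2 was the lowest library. The share of Fzd6 in the Frizzled sum was 14.2% to 16.0% in MGT+TMP269 libraries, 15.7% to 16.8% in MGT libraries and 5.97% to 7.96% in DsRed libraries, so it also stood apart within each library.

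Relative to DsRed, Fzd6 was 2.12-fold higher in MGT+TMP269 cells (log2 fold change 1.10 ± 0.26, limma adjusted p = 0.0163) and 2.36-fold higher in MGT cells (1.25 ± 0.26, limma adjusted p = 0.0127). Fzd5 was 2.21-fold higher in MGT+TMP269 cells (1.07 ± 0.26, limma adjusted p = 0.0172) and 2.10-fold higher in MGT cells (1.01 ± 0.26, limma adjusted p = 0.0343). These 4 calls were close to the threshold and depended on single libraries. In MGT+TMP269 cells, that of Fzd6 was lost without replicate 2 or 3 of that group (highest limma adjusted p = 0.0636), and that of Fzd5 without any 1 of the 3 MGT+TMP269 libraries (0.0628). In MGT cells, that of Fzd6 was lost without MGT replicate 1 (0.0538), and that of Fzd5 without any 1 of the MGT or MGT+TMP269 libraries (0.115). Without DsRed replicate 2, the folds were 1.73 and 1.78 for Fzd6 and Fzd5 in MGT+TMP269 cells and 1.92 and 1.69 in MGT cells, and the 4 calls held.

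Fzd8, which pairs with Lrp6 in beta-catenin signalling, was lowest with TMP269. It had 11.1, 9.88 and 11.2 TPM in MGT+TMP269 libraries, 18.9, 20.5 and 17.9 TPM in MGT libraries, and 23.5, 12.9 and 24.8 TPM in DsRed libraries. The MGT+TMP269 range lay below both others, which overlapped each other. Against DsRed the log2 fold change of -0.82 ± 0.23 was called (limma adjusted p = 0.0309), but the call was lost when any 1 library other than DsRed replicate 2 was left out (highest limma adjusted p = 0.103). Against MGT the log2 fold change of -0.78 ± 0.23 did not pass (limma adjusted p = 0.0698) and was called under 5 of 17 alternatives, the fit without DsRed replicate 2 among them (0.000497).

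Fzd7, a receptor common in stem and progenitor cells, had 35.0, 36.1 and 37.7 TPM in MGT+TMP269 libraries, 30.3, 29.5 and 30.2 TPM in MGT libraries, and 27.3, 12.5 and 28.0 TPM in DsRed libraries. The 3 ranges did not overlap and stood in that order. None of its differences was called: the log2 fold changes were 0.27 ± 0.26 between MGT+TMP269 and MGT (limma adjusted p = 0.624) and 0.74 ± 0.26 between MGT+TMP269 and DsRed (0.0704). Without DsRed replicate 2 both passed, at 0.27 (0.0140) and 0.38 (0.00374). Leaving out DsRed replicate 1 or 3 instead also brought the second past the threshold, at 0.91 (0.0497) and 0.93 (0.0365).

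Fzd1, Fzd2, Fzd3 and Fzd4 were not called in any comparison. Fzd1 averaged 26.9 ± 1.40 TPM in MGT+TMP269 cells, 25.3 ± 0.816 TPM in MGT cells and 33.7 ± 13.1 TPM in DsRed cells, and DsRed replicate 2, at 18.6 TPM, was below every other library. Fzd2 averaged 45.3 ± 2.31, 49.9 ± 1.39 and 55.6 ± 7.59 TPM in the same order, and Fzd4, a receptor needed for retinal vessels, 2.27 ± 0.132, 1.52 ± 0.0948 and 3.07 ± 1.30 TPM. Without DsRed replicate 2, Fzd1, Fzd2 and Fzd4 fell in both groups with the MGT virus relative to DsRed, and Fzd8 also fell in MGT cells. The largest of these changes were of Fzd4 in MGT cells (log2 fold change -0.93, limma adjusted p = 0.00285) and of Fzd1 in MGT cells (-0.69, limma adjusted p = 0.000319). Fzd3 averaged 2.12 ± 0.695 TPM in MGT+TMP269 cells, 1.30 ± 0.318 TPM in MGT cells and 1.28 ± 0.360 TPM in DsRed cells. Fzd9 and Fzd10 stayed below 1 TPM, with a highest single value of 0.714 TPM of Fzd9 in MGT replicate 2.

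**Figure D4:**
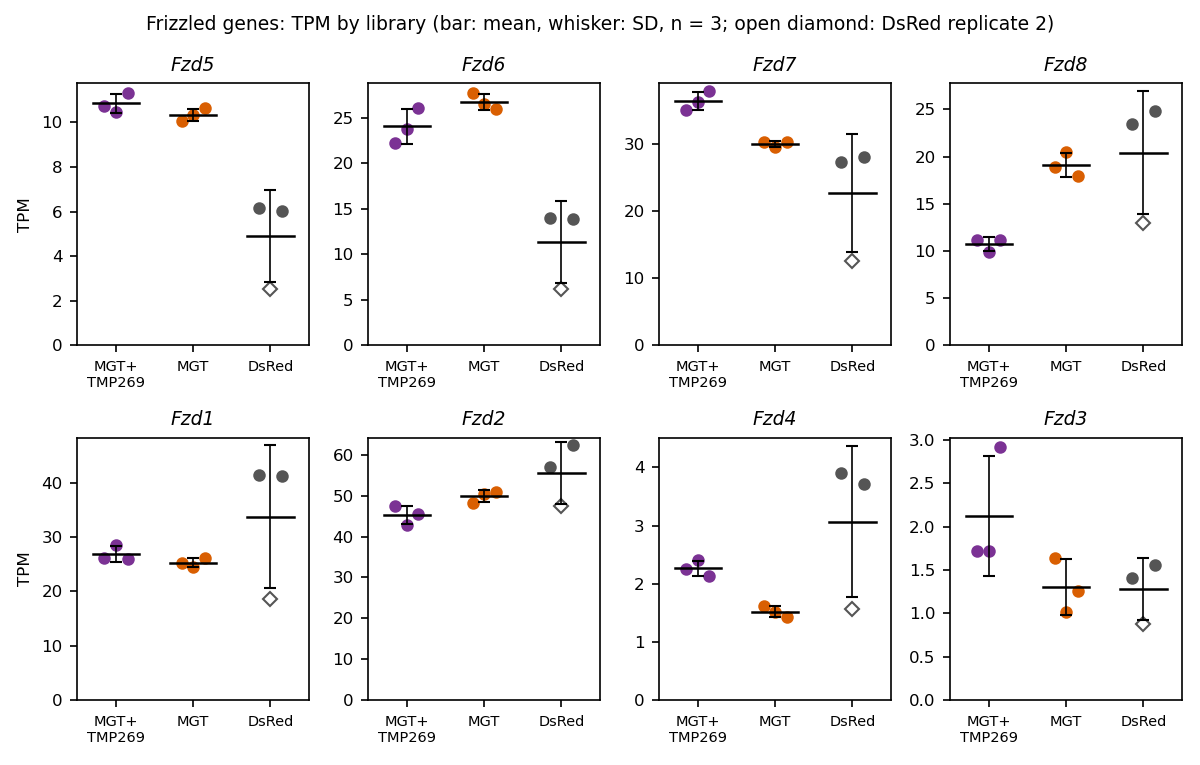
TPM (y axis) of the 8 tested Frizzled genes in each library (points), with the mean as a bar and the SD as a whisker, n = 3 for each of MGT+TMP269, MGT and DsRed; an open diamond marks DsRed replicate 2. The diamond is the lowest DsRed point in all 8 panels, Fzd5 and Fzd6 are higher in both groups with the MGT virus, and Fzd8 is lowest with TMP269.

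The mean levels of the Sfrp and Dkk genes with a group mean of at least 1 TPM were lowest with TMP269 and highest in DsRed cells. The antagonist Wif1, outside the naming rule, stood in the opposite order and is given with the wider pathway. Sfrp1, the most abundant gene of the whole family in DsRed cells, had 5.64, 6.73 and 6.92 TPM in MGT+TMP269 libraries, 23.9, 24.5 and 28.7 TPM in MGT libraries, and 211, 93.3 and 177 TPM in DsRed libraries. Its 3 ranges were far apart, with DsRed replicate 2 still above every library with the MGT virus. The mean was 3.99-fold lower in MGT+TMP269 than in MGT cells (log2 fold change -1.84 ± 0.27, limma adjusted p = 0.00247) and 6.24-fold lower in MGT than in DsRed cells (-2.52 ± 0.27, limma adjusted p = 0.000186). Between MGT+TMP269 and DsRed cells it was 24.9-fold lower (-4.36 ± 0.27, limma adjusted p = 3.52e-06). Without DsRed replicate 2 the folds against DsRed were 30.1 in MGT+TMP269 cells and 7.55 in MGT cells.

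Sfrp2, which also binds Wnt ligands and is secreted by stromal cells, followed the same order. It had 0.618, 1.08 and 0.490 TPM in MGT+TMP269 libraries, 7.44, 6.59 and 5.76 TPM in MGT libraries, and 19.7, 18.6 and 22.7 TPM in DsRed libraries. No ranges overlapped, and DsRed replicate 2 was close to its group. The log2 fold change was -2.14 ± 0.19 in MGT+TMP269 against MGT cells (limma adjusted p = 0.000191), -1.49 ± 0.19 in MGT against DsRed cells, a 3.08-fold lower mean (limma adjusted p = 0.000696), and -3.64 ± 0.19 in MGT+TMP269 against DsRed cells (limma adjusted p = 1.41e-06). All 6 calls of Sfrp1 and Sfrp2 held under the 17 alternatives.

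Dkk3, a Dickkopf relative whose effect on Wnt signalling is less settled than that of Dkk1, was lowest with TMP269. It had 8.05, 8.10 and 7.73 TPM in MGT+TMP269 libraries, 28.0, 28.0 and 28.1 TPM in MGT libraries, and 36.6, 21.5 and 35.8 TPM in DsRed libraries. The MGT+TMP269 libraries lay below all others, and the MGT libraries lay within the DsRed range. The mean was 3.52-fold lower in MGT+TMP269 than in MGT cells (log2 fold change -1.70 ± 0.20, limma adjusted p = 0.000789) and 3.93-fold lower than in DsRed cells (-1.81 ± 0.20, limma adjusted p = 0.000164). Both calls held under the 17 alternatives. Between MGT and DsRed the log2 fold change of -0.12 ± 0.20 did not pass (limma adjusted p = 0.773), and without DsRed replicate 2 it was -0.36 and called (limma adjusted p = 0.00925).

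Sfrp4 and Dkk2 were low and were highest in DsRed cells. Sfrp4 had 0.786, 0.0690 and 0.128 TPM in MGT+TMP269 libraries, 0.665, 0.955 and 1.05 TPM in MGT libraries, and 2.55, 2.72 and 2.02 TPM in DsRed libraries. The MGT+TMP269 and MGT ranges overlapped each other and lay below DsRed, and only MGT+TMP269 against DsRed was called for Sfrp4 (log2 fold change -1.40 ± 0.25, limma adjusted p = 0.00353). In MGT against DsRed it was -0.86 ± 0.25 (limma adjusted p = 0.0554), which passed without MGT+TMP269 replicate 1 (0.0341). Dkk2, a Lrp-binding Dickkopf, was not tested in the main fit. It had 0.102, 0.505 and 0.198 TPM in MGT+TMP269 libraries, 0.878, 0.626 and 0.787 TPM in MGT libraries, and 1.79, 1.66 and 1.31 TPM in DsRed libraries, ranges that did not overlap. With no filter on low values, Dkk2 and the ligand Wnt2 were called lower in MGT+TMP269 against DsRed, where 2744 of all genes were called. Dkk1, Dkk4 and Sfrp5 stayed below 0.4 TPM in every library, with a highest single value of 0.362 TPM of Dkk1 in DsRed replicate 1.

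**Figure D5:**
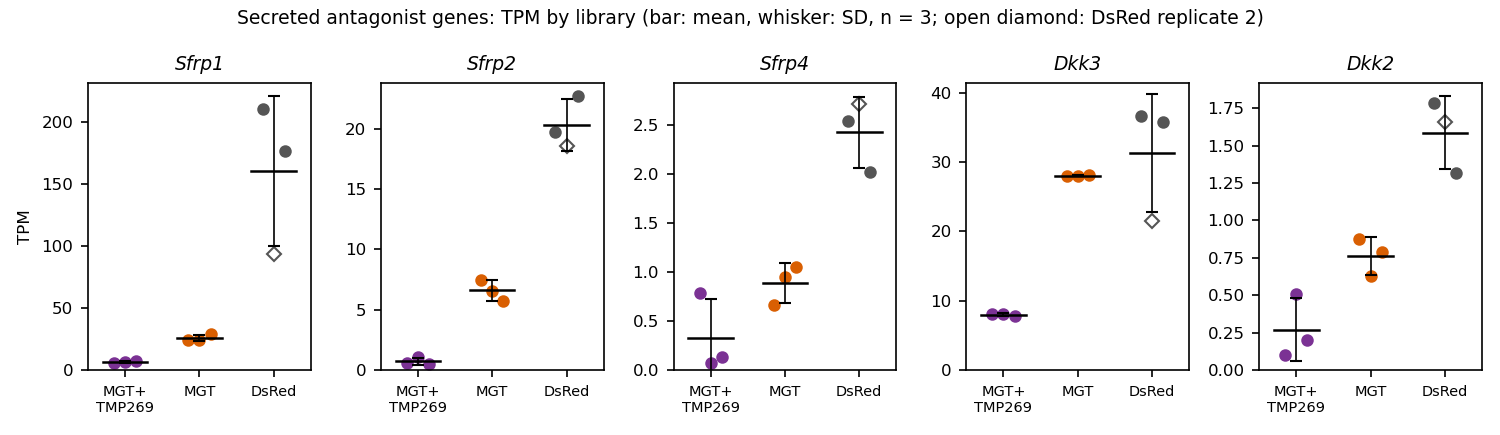
TPM (y axis) of the 5 secreted antagonist genes with a group mean of at least 1 TPM in each library (points), with the mean as a bar and the SD as a whisker, n = 3 for each of MGT+TMP269, MGT and DsRed; an open diamond marks DsRed replicate 2. Means stand in the order MGT+TMP269, MGT, DsRed from low to high in all 5 panels, and the MGT points of Dkk3 lie within its DsRed range.

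Summed over their 4 members, the Sfrp genes held 7.59 ± 0.431 TPM in MGT+TMP269 cells, 33.2 ± 2.04 TPM in MGT cells and 183 ± 61.3 TPM in DsRed cells. The Dkk genes held 8.27 ± 0.335, 28.9 ± 0.312 and 33.0 ± 8.55 TPM in the same order. The ratio of the summed antagonists to the summed ligands within a library was 0.270, 0.418 and 0.334 in MGT+TMP269 libraries, 1.12, 1.10 and 1.09 in MGT libraries, and 4.54, 3.71 and 3.96 in DsRed libraries. By this count, Sfrp and Dkk transcripts outnumbered ligand transcripts in every DsRed library and were fewer than them in every MGT+TMP269 library. The direction in MGT+TMP269 libraries rests on the naming rule. With the antagonists Frzb and Wif1 added, a choice made after their values were seen, the ratio was 1.55, 2.44 and 1.97 in MGT+TMP269 libraries, 3.04, 2.97 and 2.74 in MGT libraries and 7.17, 5.98 and 6.40 in DsRed libraries. It was then above 1 in all 9 libraries. In MGT libraries a ratio above 1 by the naming rule rests on the Dkk genes, whose sum was 96.8 ± 0.889% Dkk3. Sfrp genes alone held 32.0, 32.1 and 35.6 TPM there, against 54.6, 55.2 and 59.2 TPM of ligands. In DsRed libraries they held 233, 115 and 201 TPM, against 59.8, 37.2 and 60.3 TPM of ligands. No p is given for a score over chosen genes.

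Levels of cell type markers also differed between the groups. Over all tested genes, 3.32% were called higher and 5.97% lower in MGT+TMP269 against MGT. The shares were 14.7% and 8.06% in MGT+TMP269 against DsRed, and 8.14% and 4.18% in MGT against DsRed. Of the 11 fibroblast markers, 8 fell in MGT+TMP269 against MGT, the family members Sfrp1 and Dkk3 included. In MGT+TMP269 against DsRed 9 fell and 1 rose, and in MGT against DsRed 5 fell and 1 rose. The 11 cardiomyocyte markers summed to 14329 to 15585 TPM in MGT+TMP269 libraries, 11028 to 11986 TPM in MGT libraries and 246 to 377 TPM in DsRed libraries, and of the 10 tested, 7, 9 and 10 rose in MGT+TMP269 against MGT, MGT against DsRed and MGT+TMP269 against DsRed. The 15 macrophage markers summed to 107 to 162 TPM in MGT+TMP269 libraries, 1855 to 3489 TPM in MGT libraries and 735 to 2042 TPM in DsRed libraries, with Cd163 at 0 in DsRed, and of the 14 tested, 14 fell in MGT+TMP269 against MGT, 13 fell in MGT+TMP269 against DsRed and 1 rose in MGT against DsRed. The 8 smooth muscle and pericyte markers in the table summed to 4492 to 4574, 8011 to 8135 and 6374 to 7113 TPM in the same order, and the 7 epicardial and mesothelial ones to 508 to 538, 398 to 416 and 240 to 374 TPM. The 10 endothelial markers summed to 10.8 to 12.7, 15.9 to 24.4 and 29.1 to 34.5 TPM, with Cldn5 at 0 in MGT+TMP269 and MGT. With TMP269 added to MGT, 4 of the 6 tested smooth muscle and pericyte markers fell, 1 of the 7 epicardial ones rose, and 0 of the 7 tested endothelial ones were called by limma (3 at an unadjusted p under 0.05). In MGT against DsRed, 2 of the 7 epicardial and mesothelial ones rose and 4 fell, although their sum was higher. In MGT+TMP269 against DsRed, 2 rose and 3 fell. Msln had 239 to 256 TPM in MGT+TMP269 libraries, 236 to 247 TPM in MGT libraries and 22.7 to 32.2 TPM in DsRed libraries. Of the 6 smooth muscle and pericyte markers, 2 rose and 2 fell in MGT against DsRed, and 1 rose and 4 fell in MGT+TMP269 against DsRed. Of the 7 tested endothelial ones, 3 fell in MGT+TMP269 against DsRed. In MGT against DsRed limma called 0 of them (4 at an unadjusted p under 0.05). The part of these cell types in the results was not tested.

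The wider pathway was read from 8 lists with 78 genes in the table, 65 of them tested. Of these, Wif1, Sost, Lgr6, Lef1, Axin2 and Ror1 have a group mean below 1 TPM, and Sost and Ror1 passed the filter only through the group where they are high, so the counts below are a description. Adding TMP269 to MGT gave 9 calls (13.8%, against 9.29% of all tested genes), 3 higher and 6 lower. The balance of directions depended on the fit: it was 20 higher and 11 lower with array weights, 22 and 11 in the fit of the 2 groups compared, and 18 and 11 without DsRed replicate 2. Over all genes it moved too, from 439 higher and 790 lower to 3045 and 1773, 2868 and 1643, and 2555 and 1505. Apcdd1, a membrane inhibitor that is also a target of the pathway, averaged 1.66 ± 0.261 TPM in MGT+TMP269 cells and 8.00 ± 0.475 TPM in MGT cells, and its fall held under all 17 alternatives (log2 fold change -1.76 ± 0.29, limma adjusted p = 0.00464). Frzb, a secreted antagonist of the Sfrp kind, fell to 35.9 ± 3.81 TPM in MGT+TMP269 cells, against 69.6 ± 5.64 TPM in MGT cells and 129 ± 39.1 TPM in DsRed cells (log2 fold change against MGT -0.94 ± 0.22, limma adjusted p = 0.0267). The glypican Gpc3, the cyclin gene Ccnd1, the Dishevelled antagonist Nkd2 and the R-spondin Rspo3 also fell, and Myc and the polarity genes Prickle1 and Daam2 rose. Gpc3 lost its call without MGT replicate 2 (0.0509). The calls of Frzb, Ccnd1, Nkd2, Rspo3, Myc, Prickle1 and Daam2 were each lost without MGT replicate 1, 2 or 3 or MGT+TMP269 replicate 1 or 2. Without MGT+TMP269 replicate 3, all of these but Ccnd1 and Myc were lost, and without DsRed replicate 1 those of Nkd2 and Daam2. Leaving out DsRed replicate 2 raised the count to 29, and that of all genes from 1229 to 4060.

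In MGT against DsRed, 11 of the 65 were called (16.9%, against 12.3% of all tested genes), 7 higher and 4 lower. Under median-ratio scaling the split was 7 and 11, and under quantile normalization 9 and 13. Wif1, a secreted protein that binds Wnt ligands, had the largest change: it had 40.0, 39.5 and 42.2 TPM in MGT+TMP269 libraries, 30.1, 33.6 and 33.4 TPM in MGT libraries, and 0.693, 0 and 0.359 TPM in DsRed libraries. All libraries with the MGT virus were thus far above DsRed, in contrast to the Sfrp genes. The log2 fold change of Wif1 was 4.66 ± 0.20 in MGT cells (limma adjusted p = 3.84e-07) and 4.98 ± 0.20 in MGT+TMP269 cells (limma adjusted p = 2.03e-07) relative to DsRed, and both held under all 17 alternatives. Ror2, a receptor for Wnt5a, averaged 10.7 ± 3.80 TPM in MGT+TMP269 cells, 13.5 ± 0.373 TPM in MGT cells and 4.91 ± 1.44 TPM in DsRed cells. It rose in MGT cells under all alternatives (log2 fold change 1.33 ± 0.26, limma adjusted p = 0.00851). Lgr6, a receptor of R-spondins, Wisp2, the nuclear factors Lef1 and Tcf7l1, and Daam2 rose as well, and Gpc4, Gpc6, Rspo1 and Frzb fell. Wisp2 lost its call under median-ratio scaling (log2 fold change 0.43, limma adjusted p = 0.120). Of these, Lgr6 and Gpc4 kept their calls under all 17 alternatives. Lef1 lost its call without MGT replicate 3, and Tcf7l1 without any 1 MGT library. The count of called genes without DsRed replicate 2 was 29, while that of all genes rose from 1630 to 3468. Leaving out any 1 of the 8 libraries other than DsRed replicate 2 lost the call of Frzb. Gpc6 and Rspo1 lost theirs without any 1 MGT library or DsRed replicate 1 or 3, and Rspo1 also without MGT+TMP269 replicate 3. Daam2 lost its own without any 1 library with the MGT virus or DsRed replicate 1.

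Between MGT+TMP269 and DsRed, 28 of the 65 were called (43.1%, against 22.8% of all tested genes), 17 higher and 11 lower, and the count was between 16 and 19 without 1 of the MGT+TMP269 libraries. Under median-ratio scaling the split was 14 and 18, and under quantile normalization 17 and 17. Of the antagonists outside the naming rule, Wif1 and Sost rose and Frzb, Apcdd1 and Igfbp4 fell. Sost entered the test only through its level in MGT+TMP269 cells (2.15 ± 0.415 TPM, against 0.878 ± 0.244 TPM in MGT cells and 0.559 ± 0.226 TPM in DsRed cells), so its call is a description. Axin2, a target gene often read as a gauge of beta-catenin activity, had 2.25, 3.26 and 2.28 TPM in MGT+TMP269 libraries, 1.95, 1.31 and 1.16 TPM in MGT libraries, and 0.744, 0.474 and 0.435 TPM in DsRed libraries. Its ranges did not overlap, and only MGT+TMP269 against DsRed was called (log2 fold change 1.21 ± 0.22, limma adjusted p = 0.00407, held under all 17 alternatives). Of the 10 tested targets of beta-catenin and TCF, 3 rose in this comparison (Axin2, Lef1 and Wisp2) and 3 fell (Apcdd1, Nkd2 and Ccnd1), so the list did not move one way. Of the 8 tested polarity genes, 4 were called, and Daam2, Scrib, Prickle2 and Vangl1 rose. Vangl2, named after its values were seen, averaged 1.51 ± 0.528 TPM in MGT+TMP269 cells and 3.43 ± 1.44 TPM in DsRed cells and did not pass (log2 fold change -0.79 ± 0.26, limma adjusted p = 0.0595), but was called lower with median-ratio scaling, quantile normalization and array weights and without DsRed replicate 2. The calls of Prickle2, Vangl1 and Scrib were lost without any 1 MGT+TMP269 library. Those of Prickle2 and Vangl1 were also lost without any 1 MGT library, and that of Scrib without MGT replicate 3 or DsRed replicate 1 or 2 and under median-ratio scaling (0.0928) and quantile normalization (0.102). Igfbp4 lost its call without MGT+TMP269 replicate 1 or 2, and Wisp2 without any 1 MGT+TMP269 library. Under median-ratio scaling the log2 fold change of Wisp2 was 0.12, against 0.37 as deposited, and was not called (limma adjusted p = 0.634). Among the 17 intracellular signalling genes, which include Ctnnb1, the gene of beta-catenin, 2 rose against DsRed in MGT+TMP269 cells (Dvl1, a call lost without MGT+TMP269 replicate 1, and Dvl2, lost without any 1 MGT+TMP269 library) at an adjusted p under 0.05 by limma. Between MGT+TMP269 and MGT, limma called 0 of them (2 at an unadjusted p under 0.05), and likewise 0 in MGT against DsRed (0 at an unadjusted p under 0.05). The shares of all tested genes called in these 2 comparisons were 9.29% and 12.3%. Without DsRed replicate 2, limma called Amer1, Apc, Axin1, Dvl1, Dvl2, Gsk3b, Tnks and Tnks2 in the first, where 4060 of all genes were called. It called Axin1, Csnk1a1, Csnk1g1 and Ctnnb1 in the second (3468 of all genes). With array weights, Ctnnb1 was among the genes called in both (4818 and 2915 of all genes). The Wnt-modifying enzyme Porcn rose in MGT+TMP269 against DsRed cells, to 7.75 ± 0.776 TPM against 3.82 ± 0.532 TPM (log2 fold change 0.86 ± 0.20, limma adjusted p = 0.0144), a call lost without MGT+TMP269 replicate 1 or 3 and under both other scalings.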

How the data were processed

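RNA sequencing measured gene expression in 9 libraries, 3 per group, with groups taken from the labels. Total RNA was extracted with TRIzol and sequenced from strand-marking Illumina libraries, as the labels' protocols state. The authors deposited a single table, with a TPM value for each symbol in each library. The submitters' processing notes name kallisto, DESeq2 and build mm9. For versions, roles, annotation and strand setting the details were not given in the sources used here, and overlapping or near-identical genes are uncertain. TPM sums were 988020 to 988999 per library. TPM keeps no depth, so depth is unknown and no counting interval is given. Of 34804 lines, 25 held a date in place of a symbol (0.123% to 0.176% of the TPM) and were left out. Identical libraries numbered 0.

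In R 4.3.3 with limma 3.58.1, log2(TPM + 1) of genes with a mean of at least 1 TPM (13228 of 34779) was fitted in 1 model with group as its only term and 6 residual degrees of freedom. The moderated two-sided test used a variance trend and Benjamini-Hochberg adjustment over all genes tested. The fit was also run on simulated data with the same spread of a gene in all groups. These held no outlying library such as DsRed replicate 2, so they do not show how the fit handles it. Alternatives were pseudocounts of 0.1 and 0.5, no filter, median-ratio scaling, quantile normalization, array weights, a replicate block, a fit of the 2 groups compared, and leaving out each library. Members and gene lists were chosen with earlier results of these data known. Described are all members with a group mean of at least 1 TPM, the highest of the others, and genes of the wider lists called in a comparison. Promoter windows came from RefSeq, matched by symbol; the 11 unmatched members are named only.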

Additional observations from a re-analysis of the deposited data

How the results depend on the processing

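Of 1783 recomputed values of single genes under the alternatives, 1514 kept direction and side of the threshold, 198 kept direction but were no longer called, 40 became called and 31, none of them called, changed sign. Genes of the wider pathway entered only in comparisons where the main fit called them. They could thus lose a call but not gain one, so losses and gains here cannot be weighed against each other. Called family members numbered 5 in MGT+TMP269 against MGT, 9 in MGT against DsRed and 11 in MGT+TMP269 against DsRed. Leaving out 1 library gave 5 to 7, 7 to 15 (15 without DsRed replicate 2) and 8 to 16, and array weights gave 8 in the first. Counts over all genes, given next, moved under the same settings, with array weights from 1229 to 4818 in the first. The cause of these changes was not tested.

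All genes called moved from the main 1229 in MGT+TMP269 against MGT to 4818 with array weights, 4511 in the fit of 2 groups and 626 to 4060 without 1 library. From 1630 in MGT against DsRed they moved to 2915, 1058 and 1065 to 3468 under the same settings, and from 3016 in MGT+TMP269 against DsRed to 1782 in the fit of 2 groups and 1865 to 4851 without 1 library. In each comparison the highest count among the fits without 1 library was the one without DsRed replicate 2. The split of higher and lower calls over all genes was 1077 and 553 in MGT against DsRed, 1194 and 873 with median-ratio scaling and 1192 and 1135 with quantile normalization; in MGT+TMP269 against DsRed it was 1950 and 1066, 1544 and 1726, and 1755 and 1706. Median-ratio scaling moved the median log2 fold change of all genes from 0.11, 0.11 and 0.22 to -0.01, 0.00 and 0.00.

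Wider pathway calls in MGT+TMP269 against MGT were 9, against 5 with no filter, 31 with array weights, 3 with the replicate block, 33 in the fit of 2 groups and 1 to 29 without 1 library. In MGT against DsRed they were 11, against 18 with median-ratio scaling, 22 with quantile normalization, 24 with array weights, 7 in the fit of 2 groups and 5 to 29 without 1 library. In MGT+TMP269 against DsRed they were 28, against 17 in the fit of 2 groups and 16 to 38 without 1 library.

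The labels state no pairing by replicate number, and 3 libraries per group are too few to settle whether there was any. Same-numbered libraries of different groups correlated at -0.0698 to 0.132 after subtraction of group means, with 1 of 9 pairs above 0.1. Libraries of different groups with different numbers correlated at -0.135 to 0.0804. With the replicate block, 5, 9 and 11 family members were called, the same genes, and 947, 1418 and 2679 of all genes.

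Signs that changed, none called, were as follows (log2 fold change). In MGT+TMP269 against MGT, median-ratio scaling and quantile normalization gave -0.039 and -0.030 for Fzd1, -0.051 and -0.016 for Fzd5 and -0.099 and -0.025 for Wnt5b, and median-ratio scaling gave -0.058 for Wnt5a. Leaving out 1 library gave -0.097 to 0.17 for Wnt4, -0.18 to 0.32 for Wnt5a and -0.019 to 0.047 for Wnt5b. In MGT against DsRed, Fzd3 was -0.040, -0.25 and -0.071 with median-ratio scaling, quantile normalization and array weights. Without 1 library, Fzd3 was -0.12 to 0.11, Fzd8 -0.33 to 0.12, Wnt9a -0.29 to 0.022 and Dkk3 -0.36 to 0.012. The lowest values of Fzd8 and Dkk3, without DsRed replicate 2, kept the main sign and were called (limma adjusted p = 0.0434 and 0.00925). In MGT+TMP269 against DsRed, median-ratio scaling, quantile normalization and array weights gave -0.11, -0.12 and -0.068 for Wnt16 and -0.15, -0.20 and -0.11 for Wnt9a. Without 1 library they were -0.094 to 0.21 and -0.13 to 0.18.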
